A study of Apis mellifera with 4 samples.

Results

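The innate immunity genes described here are the 27 genes, of 11156 in the deposited gene table, whose symbols match a fixed set of names for immune recognition, signalling and effector proteins. They comprise 4 recognition genes, 15 signalling genes and 8 effector genes. No row of the table matched the names for Gram-negative binding proteins, dorsal or pelle in the form that was searched. High throughput sequencing (HTS) of RNA was carried out on whole honeybee larvae at 60 hours of development. There were 2 queen samples and 2 worker samples, each from pooled larvae of the offspring of queens inseminated by a single drone. Queen larvae had been grafted into queen cells in a hive without a queen, whereas worker larvae were not grafted and were raised in another hive, so that caste, grafting and hive cannot be told apart.

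Insects defend themselves against microbes without antibodies. Peptidoglycan recognition proteins (PGRPs) bind fragments of bacterial cell wall and feed into the Toll and Imd pathways, which were worked out in Drosophila. In the Toll pathway the secreted protein spätzle binds a Toll receptor, adaptors and a kinase pass on the signal, and the inhibitor cactus is destroyed. In the Imd pathway a membrane PGRP signals through the adaptor Imd to the NF-κB factor Relish. Both pathways lead, mostly in the fat body and the blood cells, to the transcription of antimicrobial peptides, while lysozymes cut bacterial walls and prophenoloxidase starts the formation of melanin. Toll receptors and their ligands also act in development.

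At 60 hours the short PGRP genes Pgrp-s2 and PGRP-S3 and the receptor gene Toll-1 had higher expression in workers, and the spätzle gene spz2 had higher expression in queens. Genes for the inner steps of both pathways were expressed in all 4 samples. The apidaecin and defensin genes, the only antimicrobial peptide genes among the 27, had almost no counted reads in either caste. Of the 27 genes, 22 had enough reads to be tested, and 4 of these were called different between the castes. A gene was called where the Benjamini-Hochberg adjusted p-value of the quasi-likelihood F-test in edgeR was below 0.05. Among all 7833 tested genes 18.3% were called by this rule, so that 4 of 22 is close to the background. Pgrp-s2, PGRP-S3 and Toll-1 were called higher in workers, against a background of 12.0%, and spz2 was called higher in queens, against 6.32%. Over the 22 genes the log2 fold changes had a median of -0.28, and over all tested genes 0.01. Fold changes are queens over workers throughout, so that a negative log2 value is higher in workers. Samples did not overlap between the castes for 16 of the 22 genes, where 63.8% of all tested genes did not overlap. Higher in workers without overlap were 13 of the 22 genes, against 32.1% of all tested genes. Higher in queens without overlap were 3 of the 22, against 31.7%. These directions depend on the TMM factors. With library totals the log2 fold changes of PGRP-LC, cact2, Imd, Rel and Tollip, all among the 13, turned positive. The same 4 genes were called when only the exon reads deposited as unique were counted. The background was then 18.1% in all, 6.24% higher in queens and 11.8% higher in workers. Such reads are written below as single-match reads, or as reads matching a single place. The sources used here do not say whether a read shared by overlapping genes counts as unique.

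Levels are given as read numbers per exon length and library size (RPKM) after scaling the libraries by edgeR's TMM factors, written below as scaled RPKM. The samples held between 4949093 and 5476218 exon reads, of which the 27 genes took 0.0557 to 0.0788%. The TMM factors were 1.20 to 1.22 in queens and 0.828 to 0.830 in workers, where the 10 most abundant genes took 23.4 to 24.9% of the exon reads in workers and 6.88 to 7.02% in queens. With library totals in place of these factors, the median over all tested genes moved on the log2 scale from 0.01 to 0.55. In that setting 8 of the 22 genes were called, against 53.5% of all tested genes, with 6 higher in queens against a background of 47.3% and 2 higher in workers against 6.20%. An exact permutation test of 2 against 2 samples has 0.333 as its smallest p-value, and every call therefore rests on the variance estimate that edgeR pools over genes.

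**Figure D1:**
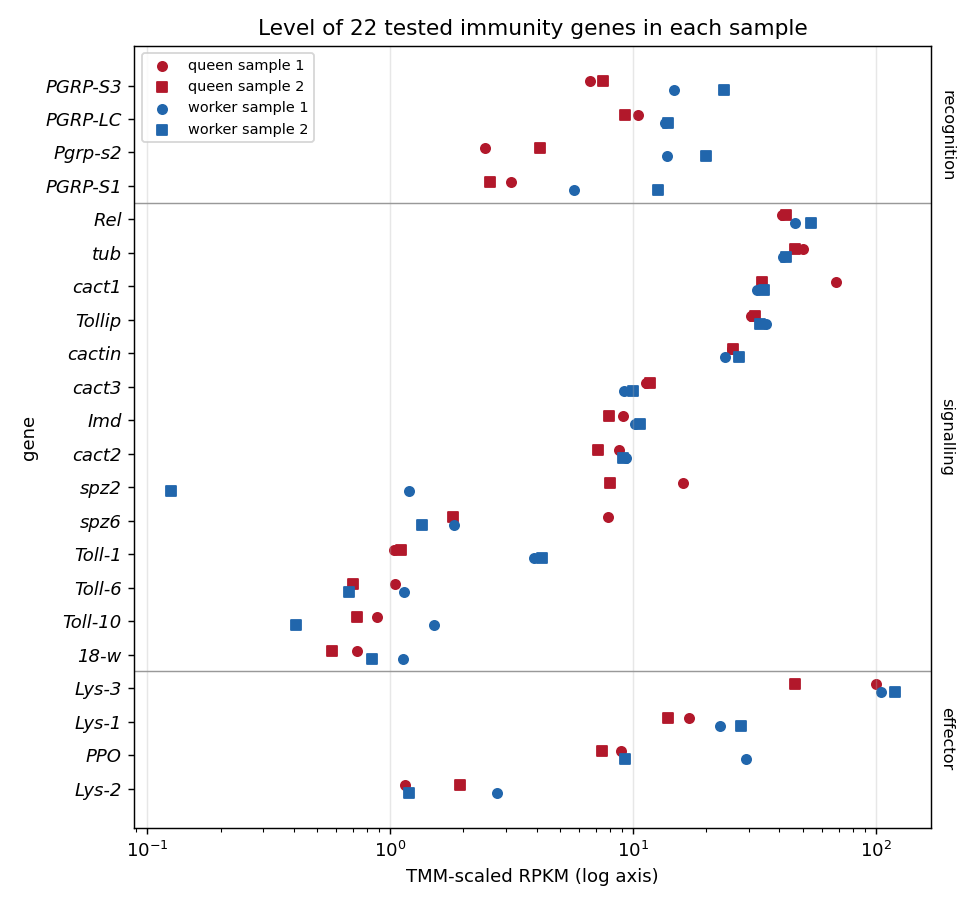
Scaled RPKM (log axis) of each of the 22 tested immunity genes in the 4 samples, grouped by role and ordered by mean level within a role. Red symbols are queen samples and blue symbols worker samples, with circles for sample 1 and squares for sample 2. All 4 recognition genes lie further right in workers, Lys-3 is the gene with the most reads per length, and spz2 in worker sample 2 is the lowest point at 0.125.

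The 4 recognition genes are all PGRPs, and each had more expression in both worker samples than in either queen sample, although with library totals the direction of PGRP-LC turned. Their summed level was 22.7 and 23.4 scaled RPKM in the queens, against 47.8 and 70.2 in the workers. Of the 4 genes, 2 were called higher in workers and 2 were not called, with a median log2 fold change of -1.55. Here 12.0% of all tested genes were called in that direction.

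The largest difference among the PGRP genes was that of Pgrp-s2, a short PGRP. It had 14 and 22 reads in the queens, against 56 and 78 in the workers. These reads correspond to 3.30 ± 1.18 scaled RPKM in queens and 16.9 ± 4.38 in workers (SD, n = 2), and the castes did not overlap. Queens were lower by a log2 fold change of -2.35 (standard error 0.37, edgeR adjusted p = 0.0138). Only 55.9% of the Pgrp-s2 reads matched a single place, and for that subset of reads the log2 fold change was -2.10 (edgeR adjusted p = 0.0312). Reads across an exon-exon junction, which require a spliced transcript, numbered 3 and 8 in queens and 9 and 14 in workers.

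PGRP-S3, for which RefSeq gives the synonym Pgrp-sa, had the highest mean level of the class over the 4 samples and in workers, whereas in queens the mean of PGRP-LC was higher. In Drosophila, PGRP-SA is the secreted receptor that triggers the Toll pathway on Gram-positive bacteria. The reads of PGRP-S3 were 36 and 38 in the queens, against 57 and 88 in the workers, all matching a single place. Expression was 7.09 ± 0.605 scaled RPKM in queens and 19.2 ± 6.33 in workers (SD, n = 2), which is -1.43 on the log2 scale (standard error 0.31, edgeR adjusted p = 0.0338). The worker samples were further apart than the queen samples and still lay above them. With library totals the log2 fold change was -0.90 and the gene was not called (edgeR adjusted p = 0.0573).

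PGRP-S1 lies next to Pgrp-s2, with 72 bases between them on scaffold NW_003378044 of Amel_4.5, and spans positions 1080718 to 1083304, while Pgrp-s2 spans 1083377 to 1086891. It had 17 and 13 reads in the queens, against 22 and 47 in the workers. Its log2 fold change of -1.67 was larger than that of PGRP-S3, but the standard error was 0.48 and it was not called (edgeR adjusted p = 0.0718). The 2 worker samples differed from each other by 1.14 on the log2 scale, with more expression in sample 2. Without worker sample 2 the log2 fold change of PGRP-S1 was -0.98, and without worker sample 1 it was -2.14.

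PGRP-LC is in Drosophila the membrane receptor of the Imd pathway. It had 145 and 120 reads in the queens, against 135 and 133 in the workers, or 9.82 ± 0.849 and 13.7 ± 0.248 scaled RPKM (SD, n = 2). Queens over workers this was -0.48 on the log2 scale, with a 95% interval of -0.88 to -0.09, and it was not called (edgeR adjusted p = 0.0949). Its direction depended on the scaling, since with library totals the log2 fold change was 0.06. The other recognition genes kept a negative log2 fold change under every alternative that was run.

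**Figure D2:**
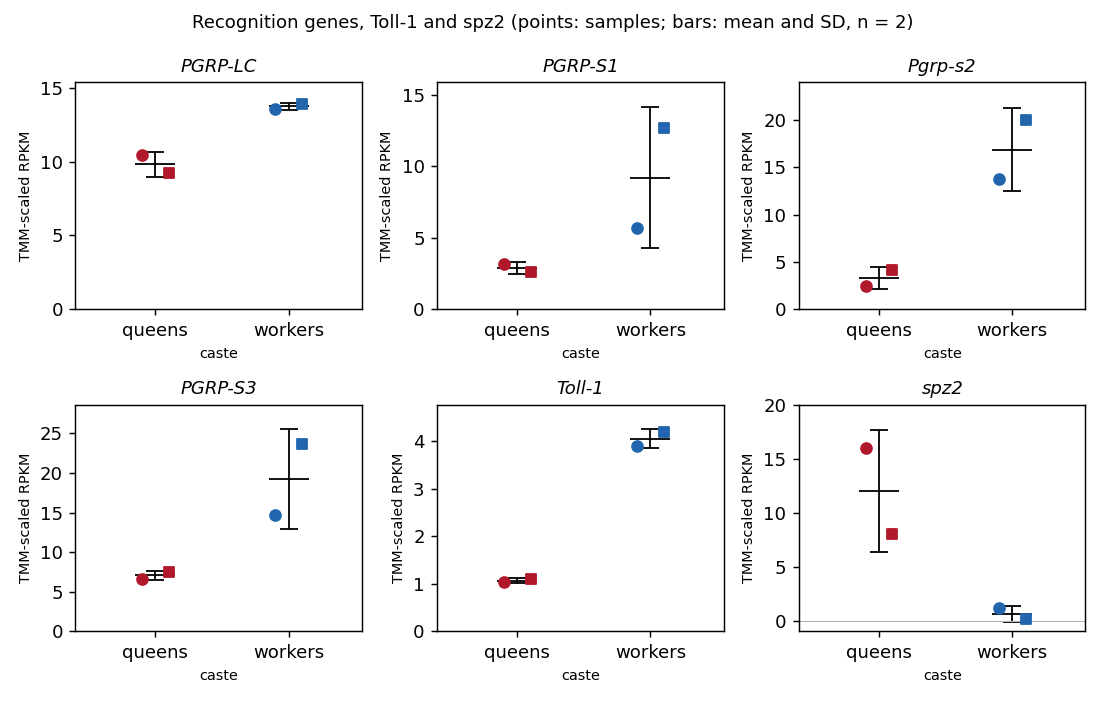
Scaled RPKM of the 4 recognition genes, Toll-1 and spz2 in queens (red) and workers (blue). Circles are sample 1, squares are sample 2, and the black bars give the mean and the SD of the 2 samples. The castes do not overlap in any of the 6 panels. In scaled RPKM the worker samples of PGRP-S1, Pgrp-s2 and PGRP-S3 lie further apart than their queen samples. On the log2 scale, sample 1 minus sample 2, the gap of Pgrp-s2 is larger in queens (-0.73) than in workers (-0.53).

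Levels of whole larvae cannot tell fewer cells of a type from less RNA per cell. The storage proteins of the fat body moved with caste in the same direction as the PGRP genes. All 5 genes of this list (Hex70a, HEX70b, Hex70c, Hex110 and Vg) were called higher in workers. Their summed level was 8507 and 9567 scaled RPKM in the queens, against 111900 and 103700 in the workers. All but Vg are hexamerin genes, which the study itself reports as more expressed in workers at this age. It also describes HEX70b expression as regulated by juvenile hormone. The summed level of this list therefore cannot show how much fat body was present. A list of 6 blood cell genes, 1 of which is the immunity gene PPO, had summed levels of 35.3 and 35.4 in queens and of 60.9 and 33.2 in workers. Without PPO, whose level in worker sample 1 was 29.3, the sums were 26.4 and 28.0 in queens and 31.6 and 23.9 in workers. The castes overlapped with and without PPO. Of the 5 tested genes of the blood cell list 1 was called, against 18.3% of all tested genes. This was NimC1, a gene for a phagocytosis receptor in Drosophila, higher in workers with a log2 fold change of -1.34 (edgeR adjusted p = 0.0203). Hml, a blood cell gene of Drosophila, had a log2 fold change of 0.28 and Pxn, which encodes peroxidasin, of -0.05. The other tested genes of the list were SCR-C, with 0.35, and PPO, with -1.24, so that its members went both ways. NimC2 had 0 reads in all 4 samples. The part of these tissues in the result was not tested.

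Among the ligands, spz2 showed the largest difference of all 22 genes. In Drosophila the protein of this name is a neurotrophin-like relative of spätzle. It had 187 and 88 reads in the queens, against 10 reads and 1 read in the workers, all matching a single place. The gene was thus well covered in both queen samples and close to silent in the workers. Its level was 12.0 ± 5.62 scaled RPKM in queens and 0.661 ± 0.758 in workers (SD, n = 2). Its log2 fold change was 4.14 with a 95% interval of 2.33 to 5.96 (edgeR adjusted p = 0.0188), and it was 6.46 when worker sample 1 was left out. Junction reads numbered 49 and 20 in queens and 1 and 0 in workers, and no other annotated gene overlaps spz2, which lies at positions 2476556 to 2484506 of scaffold NW_003378010.

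The other spätzle gene, spz6, had 102 and 22 reads in the queens, against 17 and 12 in the workers. Queen sample 2 stood among the workers at 1.81 scaled RPKM, against 1.83 and 1.34 in the worker samples, while queen sample 1 had 7.85. Its log2 fold change of 1.60 had a standard error of 0.75 and was not called (edgeR adjusted p = 0.199). Its size rested on queen sample 1, since without that sample it was 0.19 (edgeR adjusted p = 0.894), and without queen sample 2 it was 2.30 and spz6 was called (edgeR adjusted p = 6.61e-04).

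Toll-1 was the only Toll receptor gene that was called. It had 24 and 24 reads in the queens, against 65 and 67 in the workers. Expression was 1.07 ± 0.0505 scaled RPKM in queens and 4.05 ± 0.203 in workers (SD, n = 2), and the samples of a caste were almost equal. This is a log2 fold change of -1.92 (standard error 0.24, edgeR adjusted p = 0.00712).

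The annotated span of Toll-1, positions 841830 to 854567 of scaffold NW_003378026, lies inside that of Lerp, which encodes a lysosomal sorting receptor. Only 46.7% of the Toll-1 reads matched a single place. These were 14 and 13 reads in queens and 30 and 27 in workers, the same numbers as its junction reads in every sample. For Toll-1 the fit on single-match reads thus used the same counts as its junction reads. Whether its other reads match elsewhere or are shared with Lerp was not tested. With the single-match reads the log2 fold change was -1.53 and the gene was again called higher in workers (edgeR adjusted p = 0.0239). Lerp itself was not called and had a log2 fold change of -0.11 (edgeR adjusted p = 0.558). The sources used here do not state that reads were counted by strand.

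The remaining Toll receptor genes were expressed at a low level. Toll-6, whose Drosophila counterpart acts in the nervous system and in epithelia, had 27 and 17 reads in queens and 21 and 12 in workers. Toll-10 had 22 and 17 reads in queens and 27 and 7 in workers, where the 2 worker samples lay on either side of the queens. For 18-w, named after 18 wheeler of Drosophila, the reads were 19 and 14 in queens and 21 and 15 in workers. None of these was called, and their log2 fold changes were -0.05, -0.26 and -0.59. The 95% intervals ran from -1.13 to 1.02, from -1.81 to 1.30 and from -1.53 to 0.36, so that each includes a 2-fold difference in at least 1 direction. Toll-8 had 1 read in queen sample 1, 1 in worker sample 1 and 0 in the others, and was not tested. Its span lies inside that of Su(var)3-3, and none of its reads matched a single place. A count of 0 allows up to 3 reads, or at most 0.184 scaled RPKM for Toll-8 in the samples where it had 0 reads. For a count of 1 the limit lies higher, and such limits cover counting error only. Toll-6, Toll-8 and Toll-10 lie on the same scaffold, NW_003378029, in this order of position.

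The inner steps of the Toll pathway were far better covered. The adaptor gene tub, known in Drosophila as tube, had 454 and 395 reads in the queens, against 269 and 265 in the workers, or 48.3 ± 2.47 and 42.0 ± 0.755 scaled RPKM (SD, n = 2). Both queen samples were higher, by a log2 fold change of 0.20 with a 95% interval of -0.08 to 0.49, and tub was not called (edgeR adjusted p = 0.272). With library totals its log2 fold change was 0.74, and it was called higher in queens (edgeR adjusted p = 0.00702).

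Tollip, whose mammalian counterpart binds Toll-like and interleukin receptors and dampens their signal, had 271 and 262 reads in queens and 224 and 203 in workers. Its level was 31.1 ± 0.729 scaled RPKM in queens and 34.4 ± 1.41 in workers (SD, n = 2), with a log2 fold change of -0.14 (edgeR adjusted p = 0.485). The direction turned with library totals, where the log2 fold change was 0.40 and Tollip was called higher in queens (edgeR adjusted p = 0.0446).

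The genes cact1, cact2 and cact3 carry the name of cactus, the inhibitor that holds the Toll pathway's NF-κB factors in the cytoplasm. The reads of cact1 were 499 and 231 in the queens, against 169 and 173 in the workers. Queen sample 1 stood alone at 68.2 scaled RPKM, while queen sample 2 had 33.8 and the workers 32.3 and 34.4, so that the castes overlapped. The log2 fold change of cact1 was 0.61 (standard error 0.34, edgeR adjusted p = 0.259), and without queen sample 1 it was 0.02. Without queen sample 2 it was 1.04, and the gene was then called (edgeR adjusted p = 0.00308), as it was with library totals (log2 fold change 1.16, edgeR adjusted p = 0.0374).

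For cact2 the reads were 164 and 126 in queens and 126 and 117 in workers, with a log2 fold change of -0.21 (95% interval -0.65 to 0.22). For cact3 they were 156 and 152 in queens and 91 and 95 in workers, with a log2 fold change of 0.26 (95% interval -0.14 to 0.66). Neither was called with the TMM factors, although cact3 was called higher in queens with library totals (log2 fold change 0.80, edgeR adjusted p = 0.012). These genes are not copies at 1 place, since cact1 and cact2 lie 365135 bases apart on a scaffold and cact3 lies on another.

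The gene cactin encodes a conserved nuclear protein first found as a partner of cactus in Drosophila. It had 404 and 381 reads in the queens, against 270 and 297 in the workers, which after scaling were 25.6 ± 0.150 and 25.5 ± 2.45 scaled RPKM (SD, n = 2). For cactin the log2 fold change was 0.00 with a 95% interval of -0.31 to 0.31 (edgeR adjusted p = 0.988). With library totals it was 0.54, about the shift of the median of all genes, and cactin was then called higher in queens (edgeR adjusted p = 0.0184).

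In the Imd pathway, the adaptor gene Imd had 124 and 101 reads in the queens, against 99 and 100 in the workers. Its level was 8.51 ± 0.831 scaled RPKM in queens and 10.4 ± 0.372 in workers (SD, n = 2), with a log2 fold change of -0.29 (95% interval -0.73 to 0.15, edgeR adjusted p = 0.3). The gene Rel, for Relish, had the highest mean level of the signalling genes over the 4 samples, although cact1 and tub had higher means in queens. It had 588 and 573 reads in queens and 477 and 536 in workers, or 41.6 ± 1.21 and 50.2 ± 5.56 scaled RPKM (SD, n = 2). Both worker samples lay above the queens after scaling, but the log2 fold change of -0.27 had a 95% interval of -0.58 to 0.04 and Rel was not called (edgeR adjusted p = 0.193). With library totals the sign of both genes turned, to 0.25 for Imd and 0.27 for Rel, and neither was called.

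**Figure D3:**
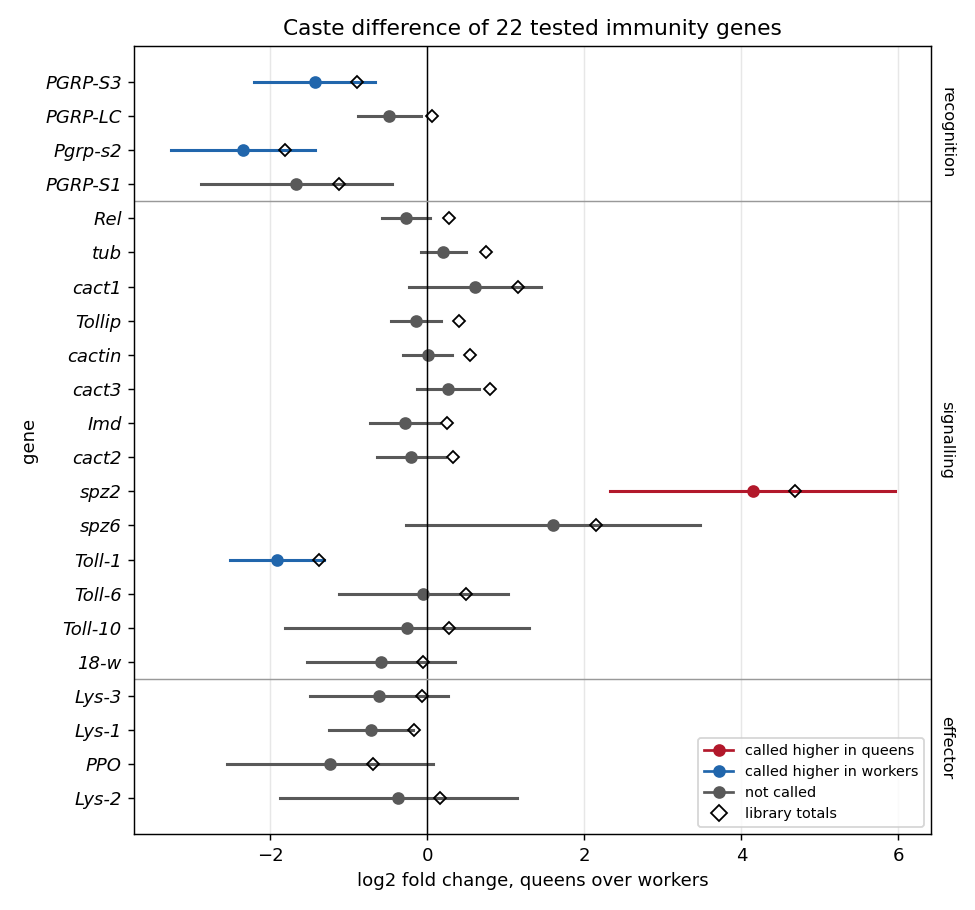
Log2 fold change, queens over workers, of the 22 tested immunity genes with 95% intervals from edgeR with TMM factors (filled circles and bars), and the value with library totals (open diamonds). Blue marks genes called higher in workers, red genes called higher in queens and grey genes that were not called. Library totals move every gene to the right, and Pgrp-s2, PGRP-S1, PGRP-S3, Toll-1 and PPO remain left of -0.5.

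The apidaecin and defensin genes had almost no counted reads in both castes. Apid1 and Apid73, for the proline-rich apidaecins, had at most 2 reads and 1 read in a sample. Def1, which encodes the defensin that is also found in royal jelly, had 2 and 0 reads in the queens, against 3 and 2 in the workers. Def2 had 0 reads in all 4 samples, which allows at most 1.18 scaled RPKM for reads counted to it. None of these genes was tested, and at this depth no difference between the castes was detectable for them. Only 14.3% of the few Apid1 reads and none of the Apid73 reads matched a single place. Apid1 overlaps LOC724692 by 1060 bases, Apid73 overlaps Tim17 by 988 bases, and the span of Def2 lies inside that of LOC552490. Whether reads of these genes were counted for the overlapping genes or left out was not tested.

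The lysozyme genes differed widely in level. Lys-3 was the most expressed of the 27 genes, above 90.8% of the genes with reads. It had 614 and 267 reads in the queens, against 459 and 504 in the workers, or 99.98 and 46.5 scaled RPKM in the queens and 104.5 and 119.4 in the workers. Queen sample 1 thus lay close to the workers and queen sample 2 far below. The log2 fold change of Lys-3 was -0.61 (95% interval -1.49 to 0.27, edgeR adjusted p = 0.279), and it was -1.26 and called without queen sample 1 (edgeR adjusted p = 2.12e-04). Only 54.0% of the reads of Lys-3 matched a single place, and with those alone the log2 fold change was -0.74.

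Lys-1 had 91 and 70 reads in the queens, against 88 and 103 in the workers. After scaling both worker samples were higher, with 25.4 ± 3.53 scaled RPKM against 15.4 ± 2.12 in queens (SD, n = 2). Their difference, a log2 fold change of -0.72, had a 95% interval of -1.25 to -0.18, but Lys-1 was not called after adjustment over all genes (edgeR adjusted p = 0.0765). Lys-2, which overlaps Lys-1 by 657 bases, had between 5 and 12 reads in a sample and overlapping castes.

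PPO encodes prophenoloxidase, the precursor of the enzyme that makes melanin. Its reads were 140 and 109 in the queens, against 329 and 100 in the workers. Worker sample 1 stood alone at 29.3 scaled RPKM, while worker sample 2 had 9.26 and the queens 8.91 and 7.42. PPO had a log2 fold change of -1.24 with a standard error of 0.52 and was not called (edgeR adjusted p = 0.165). Without worker sample 1 it was -0.18 (edgeR adjusted p = 0.584), and without worker sample 2 it was -1.84 and PPO was called (edgeR adjusted p = 0.0394). It was also called without queen sample 1 (log2 fold change -1.38, edgeR adjusted p = 0.0287). LOC551428, which overlaps PPO by 666 bases, was itself called higher in workers (log2 fold change -0.72, edgeR adjusted p = 0.0134). Of the 4 effector genes that were tested 0 were called by edgeR, all 4 had negative log2 fold changes with a median of -0.66, and 1 had an unadjusted p-value below 0.05. Over all tested genes 18.3% were called and 34.1% had an unadjusted p-value below 0.05. DESeq2 also called 0 of the effector genes, against 1447 of 9578 genes with a read. With library totals the sign of Lys-2 turned to 0.16.

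Samples of the same caste differed for several immunity genes. A gap of more than 2-fold between the queen samples was found for 3 of the 22 genes, cact1, spz6 and Lys-3, and all were higher in queen sample 1. Among all tested genes 5.58% had such a gap. Between the worker samples it was found for 5 of the 22 genes, against 5.08% of all tested genes. These were spz2, PPO, Toll-10 and Lys-2, higher in worker sample 1, and PGRP-S1, higher in worker sample 2. Of these genes, PGRP-S1, spz2, Toll-10 and Lys-2 had 47 reads or fewer in each worker sample, whereas PPO had 100 or more. None of the 22 genes had such a gap in both castes.

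**Figure D4:**
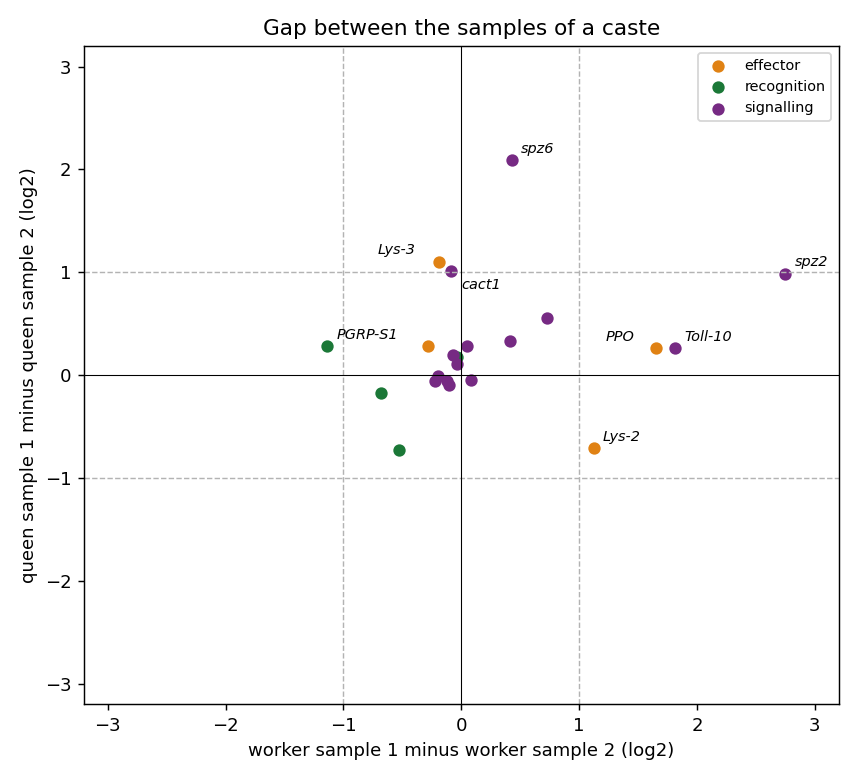
Gap between the 2 samples of a caste on the log2 scale (scaled reads, 0.5 reads added) for each of the 22 tested genes, with workers on the horizontal axis and queens on the vertical axis. Colours give the role, and dashed lines mark 2-fold. The genes spz6 (2.09 in queens), spz2 (2.75 in workers), Toll-10 (1.82 in workers) and PPO (1.65 in workers) lie farthest out, and most other genes lie near the origin.

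The calls depended on having both worker samples. When either was left out, with the lone worker sample assumed to vary like the queens, edgeR called none of Pgrp-s2, PGRP-S3, Toll-1 and spz2. Their adjusted p-values were 0.0537 to 0.0641 without worker sample 1 and 0.0697 to 0.127 without worker sample 2. Over all tested genes the number of calls in these fits was 465 and 298, compared with 1437. The log2 fold changes stayed between -1.97 and -1.87 for Toll-1, between -2.75 and -2.02 for Pgrp-s2 and between -1.74 and -1.05 for PGRP-S3, whichever sample was left out.

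A wider list of immune genes outside these names, 24 of which are in the table, was examined in the same fit. Of 22 tested genes 2 were called in favour of workers and 0 in favour of queens, against 12.0% and 6.32% of all tested genes, and the median log2 fold change was 0.13. TEP7, a thioester-containing protein related to complement factors, had 1444 and 1498 reads in the queens, against 2589 and 2085 in the workers. This is -1.13 on the log2 scale (standard error 0.13, edgeR adjusted p = 0.0056), and the castes did not overlap. The other called gene was NimC1, with 76 and 89 reads in queens and 129 and 174 in workers, of which 33.6% matched a single place. None of the 3 further genes of the Toll pathway, the 5 tested genes of the Imd and JNK pathways, the 2 of the JAK/STAT pathway and the 2 of RNA interference was called by edgeR. Among these 12 genes an unadjusted p-value below 0.05 was found for bsk, the JNK kinase, with a log2 fold change of -0.38, and for Socs-5, a cytokine signalling suppressor, with 0.44. These 2 of 12 genes, and 6 of the 22 tested genes of the whole list, compare with 34.1% of all tested genes. The 10 tested genes of cellular defence held 4 of the 6, TEP7 and NimC1 among them. DESeq2 also called 2 genes of the wider list, against 1447 of 9578 genes with a read. The Toll genes Myd88, Traf6 and Pli had log2 fold changes of 0.19, 0.02 and 0.21.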

How the data were processed

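Per the labels and the study's methods, RNA of whole larvae at 60 hours was sequenced from 2 queen and 2 worker samples. The authors used CLC Genomics Workbench to map reads to the Amel_4.5 assembly (version not given in the sources used here) and deposited read counts per gene, as all exon reads and as single-match exon reads, and RPKM. Deposited fold changes and p-values of the authors' own test, and a table of transcripts chosen by it, were not used.

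Exon read counts of all genes were compared with edgeR 4.0.16 (R 4.3.3), TMM factors, filterByExpr and the quasi-likelihood test without a block, with Benjamini-Hochberg adjustment over all tested genes and a threshold of 0.05. The study's own test works on weighted proportions. Standard errors and 95% intervals were derived from the F statistic. Scaled RPKM used exon reads, exon length and effective library size. The depth, 4949093 to 5476218 exon reads per sample, limits genes with few reads, and p-values measure the spread between pooled samples.

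Alternatives were DESeq2 1.42.0, its size factors, upper-quartile scaling, library totals (also leaving out the 10 most abundant genes), a filter of 1 read, a minimum of 10 reads for each sample, single-match reads, limma 3.58.1 on the deposited RPKM, log2-transformed with a pseudocount of 1 or 0.1 (at least 1 in 2 or more samples), the replicate number as a block, and leaving out each sample. Tests were tried on simulated data.

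Members and lists were chosen with earlier results of these data known. Every gene of the pattern is accounted for. Per-sample values are given for called genes, genes whose call changed with library totals or single-match reads, the highest level in each class, and the key steps of each pathway. Of the wider list only called genes, the Toll genes, bsk and Socs-5 are named, all but the called ones after their values were seen. Of the 27 symbols 9 are in RefSeq's table (Amel_HAv3.1), used for synonyms only. Abaecin, hymenoptaecin and eater matched no row by name and were not analysed here.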

Additional observations from a re-analysis of the deposited data

How the results depend on the processing

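Pgrp-s2 and Toll-1 kept their direction and call in all alternatives except the fits without a worker sample. PGRP-S3 was also lost with library totals (-0.90) and limma (-0.81 and -0.88 with pseudocounts of 1 and 0.1), and spz2 was filtered out when 10 reads were required in every sample. With library totals 4191 genes were called in all, 8 immune genes (6 higher in queens), 1 recognition gene, 7 signalling genes and 14 of the wider list, and the median over the immune genes was 0.26. limma on RPKM, which is also scaled by totals, called 3805 of 7904 genes with a pseudocount of 1, 3327 of them higher in queens. With a pseudocount of 0.1 it called 3443, of which 2990 were higher in queens. With either it called 1 recognition gene, 5 signalling genes, 4 immune genes higher in queens and 12 of the wider list, and the medians were 0.20 and 0.22. Leaving the 10 most abundant genes out of the totals gave 2 immune genes higher in queens and 5 calls in the wider list. Of all 7833 tested genes 2075 were called in that setting, 1426 of them higher in queens. Requiring 10 reads in every sample left 1 signalling gene and 0 immune genes higher in queens, with 3 immune genes called. Of the 7320 genes tested there 1426 were called, 499 of them higher in queens.

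Signs that turned belonged to genes without a call under the TMM factors. With library totals they were 0.33 for cact2, 0.25 for Imd, 0.16 for Lys-2, 0.058 for PGRP-LC, 0.27 for Rel, 0.28 for Toll-10, 0.49 for Toll-6 and 0.40 for Tollip. Without the 10 most abundant genes they were 0.033 for cact2, 0.19 for Toll-6 and 0.10 for Tollip. With limma and pseudocounts of 1 and 0.1 they were 0.26 and 0.29 for cact2, 0.20 and 0.22 for Imd, 0.11 and 0.21 for Lys-2, 0.025 and 0.027 for PGRP-LC, 0.24 and 0.25 for Rel, and 0.36 and 0.37 for Tollip.

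Leaving out each sample gave 298 to 1314 genes called in all, 0 to 6 immune genes (0 to 3 higher in queens, 0 to 5 higher in workers), 0 to 2 recognition genes, 0 to 4 signalling genes, 0 to 2 effector genes and 1 to 3 of the wider list. The median over the immune genes ranged from -0.42 to -0.17. The log2 fold change ranged from -0.093 to 0.11 for cactin, from -0.83 to 0.35 for Lys-2, from -0.90 to 0.97 for Toll-10, from -0.37 to 0.37 for Toll-6 and from 3.32 to 6.46 for spz2.

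The replicate numbers are shared between the castes only as numbers. The deviations of same-numbered samples had a correlation of -0.04 across 7833 genes, and with the replicate number as a block 1223 genes were called, with the same 4 immune genes among them. Depth limits the apidaecin and defensin genes and Toll-8 most. Of these, Apid1, Apid73, Def2 and Toll-8 also overlap another annotated gene, and what that did to their counts was not tested.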

Other observations

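Genes of the Toll pathway stand in the table under symbols that the pattern did not take. These were chosen after their values were seen. The kinase gene pelle had 164 and 170 reads in the queens, against 124 and 113 in the workers, with a log2 fold change of 0.03 (95% interval -0.36 to 0.42, edgeR adjusted p = 0.907). The symbol Dl is given to genes at different places, and the files do not say which of them stands for dorsal and which for Delta. The Dl gene on scaffold NW_003378093 had 582 and 579 reads in queens, against 491 and 421 in workers, which is -0.11 on the log2 scale (95% interval -0.40 to 0.18). The Dl gene on scaffold NW_003378088 had between 13 and 17 reads in a sample.

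Of the 27 immunity genes, 18 overlap another annotated gene. LOC100576758, which overlaps Pgrp-s2 by 1413 bases, had 1 read in queen sample 1 and 0 in the other samples. UbcD2, which overlaps PGRP-S3 by 184 bases, was called in the opposite direction, with a log2 fold change of 0.47 (edgeR adjusted p = 0.0474).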
